A study of Drosophila melanogaster with 12 samples.

Results

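The comparison described here is that of whole adult *Drosophila melanogaster* females reared on a carbohydrate-rich, protein-poor diet in which the ratio of protein to carbohydrate (P:C) was 0.25, against females reared on the baseline diet of P:C 0.4, which served as the control. Its members are 6 of the 12 RNA samples of the study, the 3 labelled P:C 0.25 and the 3 labelled P:C 0.4, and all values of change come from a fit on these 6 samples only. Flies of both groups came from the same outbred Baseline Population and differed by the food that held them from the egg onward, which matched in calories and exchanged yeast for sugar. Each sample pooled 12 females frozen on day 13 post egg collection, and polyA RNA of the whole body was sequenced. Age was set from egg collection, and the age of these females since eclosion is not given in the sources used here. In a separate assay of the study, development from egg to adult was significantly faster on the 0.4 diet than on the 0.25 diet. Females of the 0.25 diet may thus have been younger adults on day 13, and the diet and the adult age of the flies cannot be told apart. The question was which tissues and functions differ in RNA level between the diets, among the transcripts that pass a test singly and among groups of transcripts that do not.

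In an adult female fly the large flight and leg muscles of the thorax hold most of the sarcomere and mitochondrial RNA, while the ovary makes germline and eggshell transcripts and takes up yolk protein from the fat body. The newly eclosed adult still lays down cuticle and completes its muscles and sense organs, and dietary yeast, the source of protein, is needed for egg production. Chemosensory organs such as the antenna are small, and their transcripts, among them those of odorant-binding proteins that carry odorants in the fluid around sensory neurons, form a small share of whole-body RNA.

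Between 7156354 and 10883919 counts were assigned in each of the 6 samples, and 3 counts corresponded to 0.281 to 0.443 CPM, which are the counts of a transcript relative to the size of its library. Levels are given as CPM scaled by the TMM factors, which are not divided by transcript length and are compared here only between samples. The tissues were present as labelled: transcripts of flight muscle, retina, neurons, midgut, germline, follicle cells, fat body and hemocytes were counted in all 6 samples, and the male transcripts Acp26Aa, Acp36DE, Mst84Da and roX2 had 0 counts on the 0.25 diet. Of the other male markers betaTub85D reached at most 0.591 CPM on that diet, and roX1 was counted at 9.16, 3.98 and 1.87 CPM against 4.51, 0.547 and 4.51 CPM in the controls (adjusted p = 0.691). The first principal component of the 6 samples, 45.4% of the variance, separated the diets, but replicate 2 of the 0.25 diet lay at -0.15, nearer to the controls, at 10 to 21.2, than were the other 0.25 replicates, at -28.9 and -18.9. Results are therefore also given without this replicate. It was picked in these same data as nearest to the controls, so larger differences without it follow from that choice and add no support. With fewer samples, non-overlap is also reached more easily. In whole flies, fewer cells of a type and less RNA per cell cannot be told apart.

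After the filter on low counts 9743 transcripts were tested. Differentially expressed (DE) denotes a Benjamini-Hochberg adjusted p under 0.05 in the quasi-likelihood test of edgeR together with a change of more than 1.5-fold, and every adjusted p below is of this test over all 9743 transcripts. DE transcripts numbered 62, of which 60 were higher and 2 lower on the 0.25 diet, so that 0.636% of all tested transcripts were DE, 0.616% DE and higher and 0.0205% DE and lower. The 60 and the 2 did not overlap between the diets in any sample, which follows largely from their selection in these same samples and adds no support. Of all tested transcripts 13% had their 0.25 samples all above, and 9.73% all below, the 3 controls. Over all tested transcripts the median log2 fold change was -0.01 and 47.8% lay above 0, but 717 transcripts (7.36%) were more than 1.5-fold higher and 78 (0.801%) more than 1.5-fold lower.

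The number of DE transcripts rested on single samples. Left out in turn, replicates 1, 2 and 3 of the 0.25 diet gave 35, 394 and 2 DE transcripts, and replicates 1, 2 and 3 of the control gave 4, 28 and 2. All 62 remained DE without replicate 2 of the 0.25 diet, 2 of them, CG3264 and Obp83a, were DE in each of the 6 fits, and none of the 62 changed sign in any fit. The adjusted p values of the other 60 therefore did not hold against the loss of at least 1 sample. The DESeq2 Wald test called 260 transcripts, 249 higher and 11 lower, and shared 61 of the 62.

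Transcripts were then read by 45 lists of tissue and function, and 33 of the 62 DE transcripts belonged to a list. The medians of the filament, respiratory, glycolytic, eye and neuronal lists lay above the upper quartile of all transcripts, those of the digestive proteases and carbohydrases lay between the quartiles, and those of the germline and eggshell lists lay below the lower quartile.

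**Figure D1:**
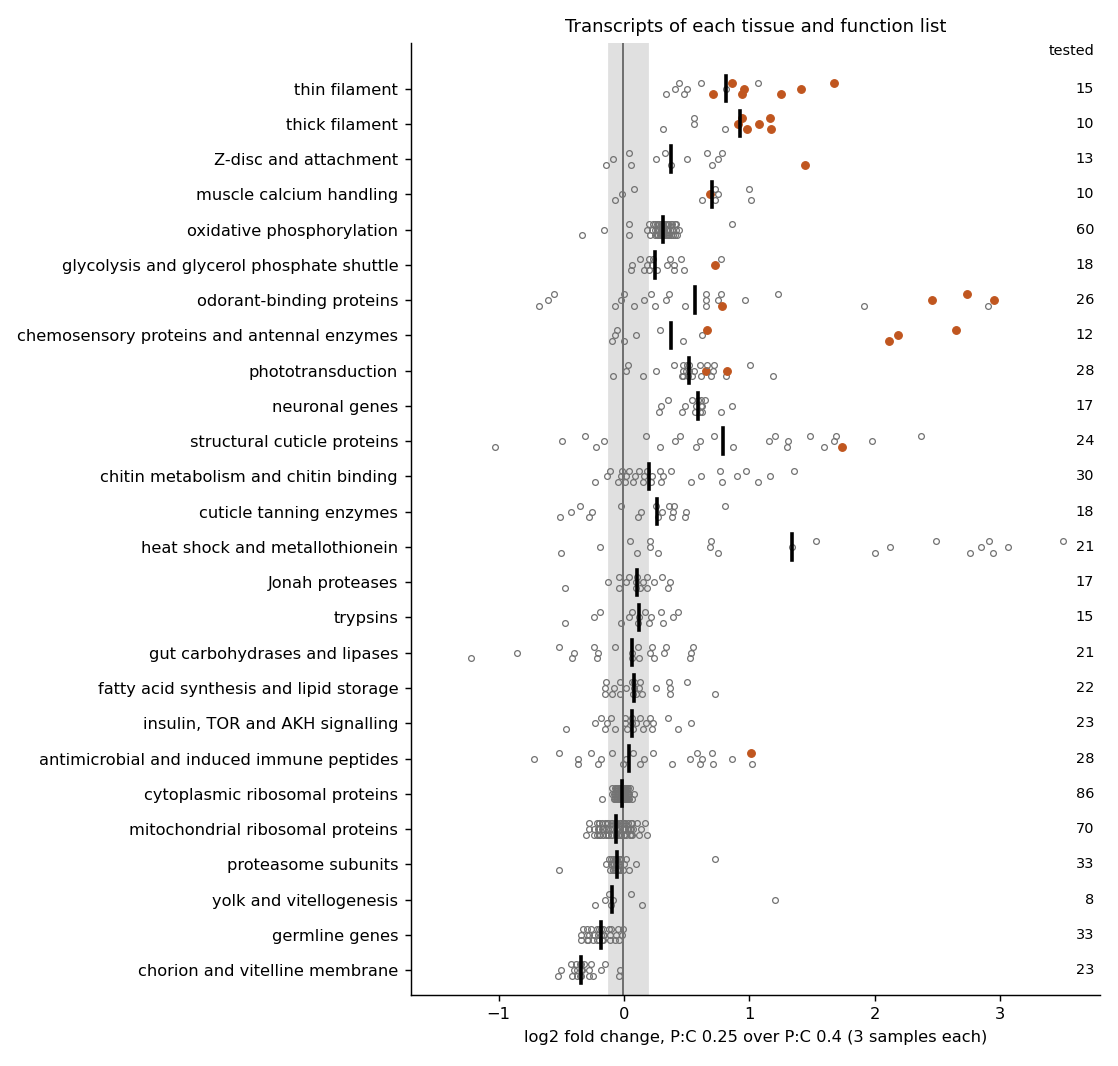
Log2 fold change of each tested member of 26 lists, 0.25 diet over control, 3 samples each, with filled points for DE transcripts, a black bar for the list median and its number of tested members at the right. The grey line and band are the median, -0.01, and the quartiles, -0.12 and 0.19, of all 9743 tested transcripts; all germline and eggshell members lie below 0, and all thin and thick filament members lie above it.

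Transcripts of the sarcomere, the contractile unit of muscle, made up 14 of the 60 DE transcripts that were higher. The lists of thin filament, thick filament and Z-disc transcripts together had 38 tested members, of which 14 were DE and higher, against 0.616% of all transcripts, and 0 were DE and lower. For 29 of the 38 the diets did not overlap, with the 0.25 samples higher, which is 76.3% against 13% of all transcripts, and the median log2 fold change was 0.71. The direction held in each fit that left out a sample, with a median of the 3 lists between 0.61 and 0.80, but the number DE did not. Without replicates 1, 2 and 3 of the 0.25 diet 7, 26 and 0 of the 38 were DE, and without replicates 1, 2 and 3 of the control 2, 10 and 0. Summed over the 3 lists, the samples of the 0.25 diet held 16367, 12755 and 14942 CPM, and the controls held 9069, 7724 and 9607 CPM. Replicate 2 was thus the lowest of its diet, and it still lay above every control.

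Among the proteins of the thick filament, the RNA of the regulatory light chain of myosin, Mlc2 (chromosome 3R, 30171438 to 30174551 of dm6, 3 exons), was counted at 1559.97, 1450.3 and 1427 CPM on the 0.25 diet and at 726, 546 and 709.8 CPM in the controls. All 3 samples of the 0.25 diet exceeded every control, with a log2 fold change of 1.17 ± 0.11 (SE), adjusted p = 0.0105. For Mhc, the myosin heavy chain that forms the filament and its motor, the 0.25 samples held 1870.3, 1301 and 1703 CPM and the controls 797, 709 and 812 CPM (log2 fold change 1.08 ± 0.13 (SE), adjusted p = 0.0226). The essential light chain Mlc1 reached 429, 407 and 419.8 CPM against 224, 168 and 263 CPM (log2 fold change 0.94 ± 0.14 (SE), adjusted p = 0.0341). Of the 10 transcripts in the list 6 rose and none fell, the others being Prm, the paramyosin of the filament core (log2 fold change 0.91 ± 0.15 (SE), adjusted p = 0.0423), Strn-Mlck, a giant kinase of the myosin light chain (log2 fold change 0.98 ± 0.16 (SE), adjusted p = 0.0398), and the flight muscle protein fln, flightin. Flightin overlaps the antisense transcript CR45161, which was also DE, and because the strand setting of the counting is not stated, their reads cannot be told apart. The list median was 0.92.

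Of 15 thin filament transcripts 7 rose, none fell, and all 15 had a log2 fold change above 0, with a median of 0.82. Act88F, the actin of the indirect flight muscles, stood at 611, 682 and 605 CPM on the 0.25 diet and at 281, 142 and 172 CPM in the controls (log2 fold change 1.67 ± 0.22 (SE), adjusted p = 0.0226). Act79B, the actin of leg and jump muscle, was found at 547, 396 and 444 CPM against 184, 124 and 213 CPM (log2 fold change 1.41 ± 0.19 (SE), adjusted p = 0.024). These actin genes are paralogs whose reads can be shared, so their separate values are uncertain. Act57B, a muscle actin already abundant in the larva, had 877, 599.8 and 738 CPM against 442, 537 and 587 CPM and did not pass the test (adjusted p = 0.136). The regulatory proteins of the filament also rose: troponin I, encoded by wupA, had a log2 fold change of 0.94 ± 0.12 (SE), adjusted p = 0.0226. Troponin T, encoded by up, had a log2 fold change of 0.96 ± 0.13 (SE), adjusted p = 0.0226, and tropomyosin Tm2 had a log2 fold change of 0.86 ± 0.11 (SE), adjusted p = 0.0226. The troponin C of flight muscle, TpnC4, was counted at 184, 179 and 171 CPM and 96.1, 47.8 and 80.6 CPM on the respective diets, and both it (adjusted p = 0.0402) and TpnC25D (adjusted p = 0.0322) were DE.

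The Z-disc anchors thin filaments at the ends of the sarcomere. In its list of 13 tested transcripts, which includes the integrin attachment proteins, 1 was DE, 11 lay above 0 and the median was 0.38. Zasp67, a PDZ domain protein of the disc, rose from 9.03, 5.47 and 6.09 CPM in the controls to 21.3, 17.2 and 17.7 CPM, with a log2 fold change of 1.44 ± 0.21 (SE), adjusted p = 0.0277. Alpha-actinin, encoded by Actn, was counted at 437, 408 and 442 CPM against 345, 334 and 350.02 CPM, without overlap but with an adjusted p of 0.0664. For tn, a muscle TRIM protein, the values were 147, 105 and 131 CPM and 73.4, 60.4 and 89.7 CPM (adjusted p = 0.0671), and for the nesprin Msp300, 579, 385 and 507 CPM and 377, 365 and 391 CPM (adjusted p = 0.2), the last with overlapping samples. The integrin-linked members Ilk, rhea and mys, which many tissues express, had log2 fold changes of -0.09, 0.05 and 0.04.

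**Figure D2:**
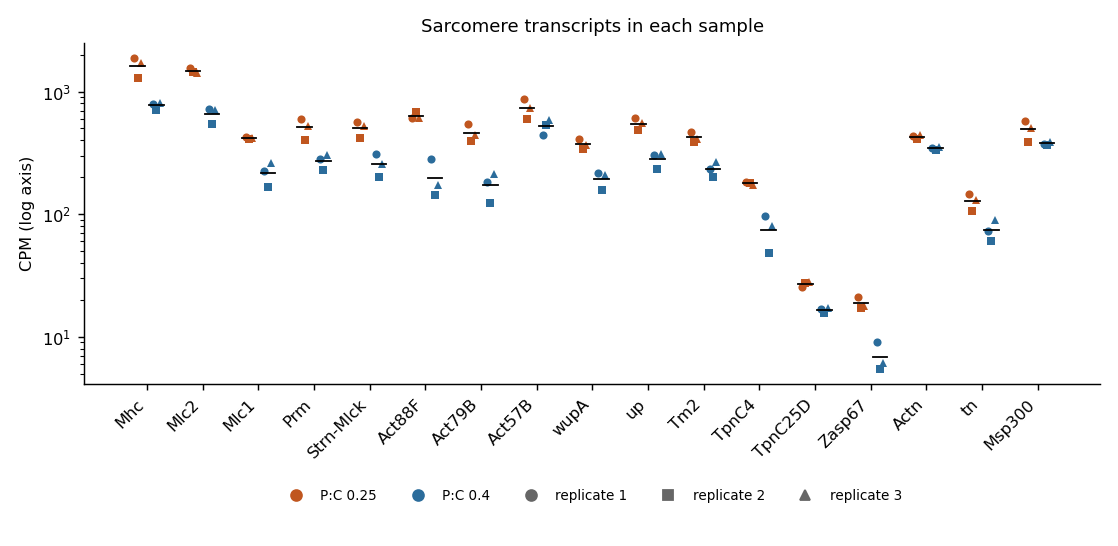
CPM on a log axis of 17 sarcomere transcripts in each of the 3 samples of the 0.25 diet (orange) and the 3 of the control diet (blue), with symbols for the replicate number and a bar at the mean. Apart from Msp300, every transcript shown has its 3 orange points above its 3 blue points, as for Mlc2, where the lowest 0.25 sample is at 1427 CPM and the highest control at 726 CPM.

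Muscle contraction is switched by calcium released from the sarcoplasmic reticulum. Of 10 transcripts for this calcium handling 1 was DE, and the list median was 0.71. For 7 the diets did not overlap, all higher at 0.25 (70%, against 13% of all transcripts). The DE transcript was junctophilin, jp, which ties the reticulum to the cell membrane, with 106, 94.6 and 116 CPM against 62.4, 60.6 and 74.1 CPM (log2 fold change 0.69 ± 0.11 (SE), adjusted p = 0.0341). The calcium pump of the reticulum, Ca-P60A, had 2380.00, 1837 and 2363 CPM and 1408, 1241 and 1639 CPM (adjusted p = 0.0671), and the calcium channel Ca-alpha1D had 50.97, 37.7 and 45.3 CPM and 27.2, 22.6 and 29.9 CPM (adjusted p = 0.0608). These samples did not overlap, and without replicate 2 of the 0.25 diet 7 of the 10 transcripts were DE, while without any other single sample none was. Among 12 transcription factors of muscle none was DE, 3 had an unadjusted p under 0.05, against 12.7% of all transcripts in that direction, and the median was 0.25. Mef2, the general activator of muscle genes, stood at 91.02, 84.4 and 91.3 CPM against 72.6, 84.3 and 79.2 CPM (log2 fold change 0.18 ± 0.08 (SE), adjusted p = 0.294). The homeodomain factor hth, which is needed for flight muscle fate and is expressed in many tissues, was counted at 105, 69.3 and 92.4 CPM and 62.7, 62.3 and 59.4 CPM (adjusted p = 0.106).

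Nuclear transcripts of oxidative phosphorylation, which encode the respiratory chain and ATP synthase of mitochondria, showed a coherent difference without a single DE member. Of 60 tested, 0 were DE, 0 reached an adjusted p under 0.05 in edgeR, and 55 had an unadjusted p under 0.05 with higher values on the 0.25 diet. The samples did not overlap for 54 of the 60, which is 90%, all in that direction, against 13% of all transcripts. The median log2 fold change was 0.31, and 58 of 60 lay above 0. The largest contributor, blw, the alpha subunit of ATP synthase, had 3037, 2622 and 2880.2 CPM on the 0.25 diet and 2238, 1921 and 2218 CPM in the controls (log2 fold change 0.42 ± 0.08 (SE), adjusted p = 0.0662). Its partner ATPsyn-beta had 3011, 2601 and 2830.02 CPM and 2281, 1887 and 2339 CPM (adjusted p = 0.106). CG10219, the membrane anchor SdhD of succinate dehydrogenase, had 138, 130.1 and 135 CPM and 94.8, 89.4 and 114 CPM (adjusted p = 0.0836). The summed list held 23638, 21692 and 22709 CPM against 18301, 15907 and 19590.5 CPM, the lowest 0.25 sample being above the highest control. Leaving out any single sample kept the median between 0.22 and 0.39, and without replicate 2 of the 0.25 diet 55 of 60 did not overlap. The count of 55 is from fewer samples and cannot be set against the share over all transcripts above.

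Glycolytic transcripts lay in the same direction. All 18 lay above 0 with a median of 0.25, and 1 was DE. For 13 the diets did not overlap, all higher at 0.25 (72.2%, against 13% of all transcripts). None was DE without replicate 1 or 3 of the 0.25 diet or any control. The DE transcript, kdn, encodes citrate synthase, the entry enzyme of the citric acid cycle that was kept in this list, and it was counted at 1242, 1037 and 1159 CPM against 736, 597 and 748 CPM (log2 fold change 0.73 ± 0.10 (SE), adjusted p = 0.0277). Phosphofructokinase, Pfk, which commits sugar to glycolysis, had 302, 261 and 300.2 CPM and 217, 191 and 222 CPM (adjusted p = 0.0646). Arginine kinase, Argk, the phosphagen enzyme of insect muscle, had 1289.7, 1040.1 and 1158 CPM and 871, 748 and 891 CPM (adjusted p = 0.07). The mitochondrial ribosomal proteins, which translate the genes of mitochondrial DNA, lay mostly on the other side of 0: of 70 tested none was DE, 28.6% lay above 0, and the median was -0.06. Of the 70, 13 did not overlap with lower values on the 0.25 diet (18.6%, against 9.73% of all transcripts) and 1 with higher values. The sarcomere transcripts, whose sums are given above, were higher in the same samples, and their part in the respiratory and glycolytic lists was not tested.

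Among transcripts of sense organs the largest fold changes were those of the antenna. The log2 fold change of 2.95, for Obp19a, belonged to a transcript that passed the filter only through the 0.25 samples. Obp83a, for which the controls passed it by themselves, reached 2.74. Of 50 odorant-binding proteins 26 passed the filter, and 5 of these passed it only through the 0.25 samples, so that no count over the 26 is given as support. Among the 20 for which the controls passed the filter by themselves 2 were DE and higher, 15 lay above 0, 7 did not overlap with higher and 1 with lower values on the 0.25 diet, and the median was 0.29. Thus 75% lay above 0 and 35% were apart and higher, against 46.3% and 12.6% of all transcripts that the controls passed. Among all tested transcripts of 1 to 10 CPM these shares were 69.8% and 18.1%. The number DE among the 26 was 4, but it counts Obp83b and Obp19a, which passed the filter only through the 0.25 samples. It is given only to show how far the calls rested on single samples. In the fits that left out a sample it lay between 1 and 5. It was 1 without replicate 3 of the 0.25 diet or replicate 1 or 3 of the control, and 2 without replicate 2 of the control.

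Obp83a and Obp83b, odorant-binding proteins of the antenna, are encoded by neighbouring genes on chromosome 3R (5972155 to 5975245 and 5976177 to 5976817 of dm6). Obp83a was counted at 12.4, 15.5 and 14.8 CPM on the 0.25 diet and at 1.93, 2.33 and 2.14 CPM in the controls (log2 fold change 2.74 ± 0.20 (SE), adjusted p = 0.00305). Obp83b was counted at 5.61, 7.96 and 7.11 CPM and 0.774, 1.64 and 1.35 CPM (log2 fold change 2.45 ± 0.31 (SE), adjusted p = 0.0226). Neither overlapped between the diets, but Obp83b passed the filter only through the 0.25 samples. Obp83a passed it in the controls as well and was DE whichever sample was left out. Obp19a, another antennal member, had 4.58, 5.47 and 2.99 CPM against 0.516, 0.547 and 0.564 CPM, values that are near the limit of 3 counts in the controls (log2 fold change 2.95 ± 0.38 (SE), adjusted p = 0.0226). Like Obp83b, it passed the filter only through the 0.25 samples. Obp19d, which is expressed in several chemosensory organs, had 69.4, 79.2 and 84.7 CPM against 37.9, 49.4 and 49.3 CPM (log2 fold change 0.78 ± 0.12 (SE), adjusted p = 0.0346).

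Other members of the antenna lay in the same direction below the threshold. Obp28a and lush passed the filter only through the 0.25 samples. Obp28a had 3.55, 4.97 and 5.43 CPM against 0.774, 0.958 and 1.92 CPM (adjusted p = 0.0639), and lush, the binding protein needed for the response to a male pheromone, had 1.77, 1.99 and 2.15 CPM against 0.258, 0.547 and 0 CPM (adjusted p = 0.0781), with 0 counts in control replicate 3. The largest level of the family belonged to Obp99c, at 239, 209.8 and 212 CPM and 183, 186 and 199.6 CPM (adjusted p = 0.21). Obp99a was lower on the 0.25 diet, at 91.3, 59.2 and 107 CPM against 138, 116 and 159.7 CPM, and did not pass the test (log2 fold change -0.68 ± 0.20 (SE), adjusted p = 0.141). The spread of the family was therefore wide, from -0.68 to 2.95 on the log2 fold change scale. Its upper end was set by Obp19a, for which the controls did not pass the filter.

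In the list of chemosensory proteins and antennal enzymes 12 transcripts were tested, 2 of which passed the filter only through the 0.25 samples. Of the 9 for which the controls passed the filter by themselves 2 rose, 7 lay above 0, 2 did not overlap, both higher on the 0.25 diet, and the median was 0.29. The 2 were 22.2% of the 9, against 12.6% of all transcripts that the controls passed and 18.1% of all tested transcripts of 1 to 10 CPM. The number DE among all 12 was 4, which counts the 2 that passed the filter only through the 0.25 samples and is no support. It was 2 without replicate 2 of the control and 0 without replicate 3 of the 0.25 diet or replicate 1 or 3 of the control. Os-C, an antennal secreted protein, had 5.61, 9.08 and 10.5 CPM against 1.42, 1.64 and 1.01 CPM (log2 fold change 2.65 ± 0.33 (SE), adjusted p = 0.0226), and a10, a chemosensory protein of the antenna, had 5.47, 6.22 and 8.14 CPM against 1.55, 1.23 and 1.58 CPM (log2 fold change 2.18 ± 0.27 (SE), adjusted p = 0.0226). Both passed the filter only through the 0.25 samples, as did lush and Orco. The DE esterase Jhedup had a log2 fold change of 2.11 ± 0.34 (SE), adjusted p = 0.0363, and was named after its values were seen. GstS1 had 255, 236 and 239 CPM against 159, 157 and 146 CPM (log2 fold change 0.66 ± 0.07 (SE), adjusted p = 0.0171) and is a glutathione transferase known as an abundant protein of flight muscle, so that it is not a marker of the antenna alone. The receptors were mostly too low to test: 2 of 56 odorant receptors, 2 of 57 gustatory receptors and 4 of 57 ionotropic receptors passed the filter, and none of the 8 was DE. The co-receptor Orco, which nearly all odorant receptors require, had 1.77, 4.35 and 2.81 CPM against 0.903, 0.274 and 1.13 CPM, without overlap and with an adjusted p of 0.113.

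Most transcripts of the compound eye had higher values on the 0.25 diet. Of 28 tested phototransduction and eye transcripts 2 passed the filter only through the 0.25 samples. Among the 26 for which the controls passed it by themselves 2 rose and none fell, 25 lay above 0, and the median was 0.51. For 21 of the 26 the diets did not overlap, all higher at 0.25 (80.8%, against 12.6% of all transcripts that the controls passed). Retinin, a protein of the corneal lens, had 133, 173 and 179 CPM against 95.3, 87.5 and 92.5 CPM (log2 fold change 0.82 ± 0.11 (SE), adjusted p = 0.024). The photoreceptor myosin ninaC had 205, 224 and 246 CPM against 157, 125 and 148 CPM (log2 fold change 0.66 ± 0.10 (SE), adjusted p = 0.0363). For both, and for the summed list at 3824, 4389 and 4484 CPM against 3185, 2682 and 3366 CPM, replicate 1 and not replicate 2 was the lowest of the 0.25 diet. Without replicate 2 of that diet 5 of the 28 were DE, without replicate 2 of the control 1, and without replicate 3 of the 0.25 diet or replicate 1 or 3 of the control 0. Below the threshold, the major rhodopsin ninaE had 1247, 1504 and 1498 CPM and 1024, 912 and 1137 CPM (adjusted p = 0.0848), the light-gated channel trp had 177, 195 and 206 CPM and 132, 111 and 149.7 CPM (adjusted p = 0.0669), and ninaD, a receptor for carotenoid uptake, had 46.7, 40.2 and 43.3 CPM and 15.6, 28.1 and 21.5 CPM (adjusted p = 0.0525).

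Neuronal transcripts showed the same direction with less spread between members. All 17 lay above 0, against 47.8% of all transcripts, and the median was 0.59. For 13 the diets did not overlap, all higher at 0.25 (76.5%, against 13% of all transcripts). This list does not cover every neuronal transcript, and 0 of its 17 were DE. Among them 1, the synaptic vesicle protein nSyb, had an adjusted p under 0.05 without reaching the 1.5-fold minimum. It was counted at 86.3, 75.6 and 85.9 CPM against 56.99, 52.01 and 61.4 CPM (log2 fold change 0.54 ± 0.09 (SE), adjusted p = 0.0423). Choline acetyltransferase, Cha, the enzyme that makes the main excitatory transmitter of the fly brain, had 41.5, 34.9 and 38.9 CPM and 25.01, 22.4 and 27.6 CPM (adjusted p = 0.0525), and the presynaptic calcium channel cac had 32.5, 26.6 and 29.6 CPM and 18.8, 17.7 and 21.3 CPM (adjusted p = 0.0646). Without replicate 2 of the 0.25 diet 9 of the 17 were DE, and without any other single sample none was. Of 6 glial transcripts 1 passed the filter only through the 0.25 samples. Of the 5 for which the controls passed it by themselves none was DE and all lay above 0, with a median of 0.31. The glial transcription factor repo had 6.65, 5.72 and 4.40 CPM against 2.97, 3.97 and 3.27 CPM (adjusted p = 0.207).

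**Figure D3:**
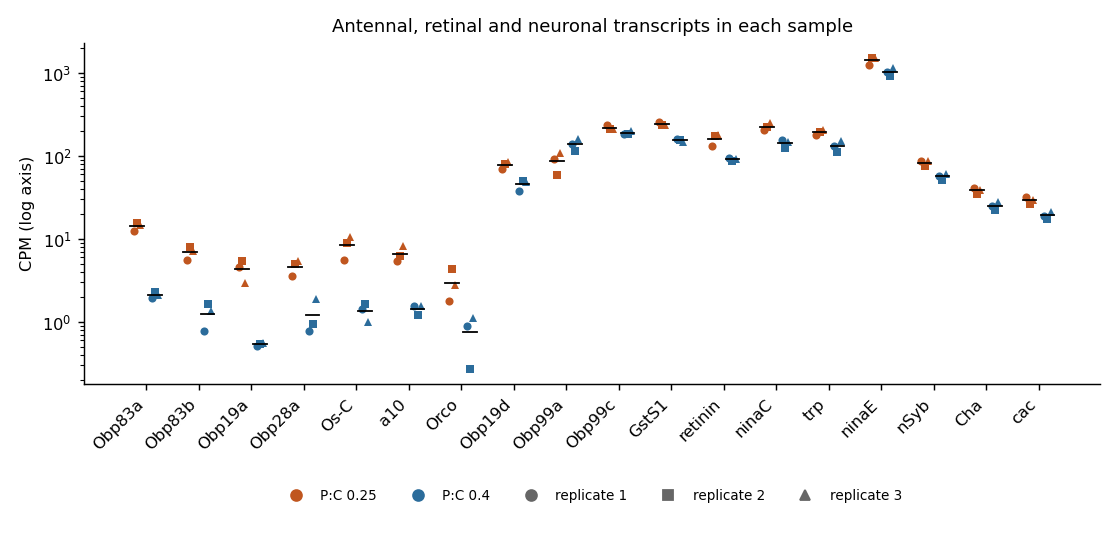
CPM on a log axis of 18 antennal, retinal and neuronal transcripts in each sample of the 0.25 diet (orange) and the control diet (blue), with symbols for the replicate number and a bar at the mean. The antennal transcripts from Obp83a to Orco are low in level and far apart between the diets, the retinal and neuronal ones are closer, and Obp99a is the transcript shown whose 0.25 samples lie below the controls.

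Structural cuticle proteins, which bind chitin and harden into the exoskeleton, had 24 of 122 members above the filter, 2 of them only through the 0.25 samples. Of the 21 for which the controls passed the filter by themselves 1 was DE, 17 lay above 0, 13 did not overlap with higher values on the 0.25 diet and 0 with lower values, and the median was 0.72. The 13 were 61.9% of the 21, against 12.6% of all transcripts that the controls passed. The DE member was Cpr47Ea, at 16.7, 9.82 and 10.01 CPM against 4.38, 2.33 and 4.06 CPM (log2 fold change 1.74 ± 0.30 (SE), adjusted p = 0.0476). Cpr62Bb had 11.7, 8.58 and 11.1 CPM against 3.09, 4.11 and 5.41 CPM (adjusted p = 0.0569), and Cpr100A had 26.6, 12.1 and 12.8 CPM against 5.29, 4.65 and 5.97 CPM (adjusted p = 0.0637). The most abundant member, Cpr49Ae, varied most within the diets, at 309.8, 148 and 198 CPM against 105, 63.6 and 123 CPM (adjusted p = 0.106). Replicate 1 of the 0.25 diet was the highest for each of these, and the summed list held 879, 456 and 577 CPM on that diet against 333, 271 and 450.1 CPM in the controls. Replicate 2 of the 0.25 diet and replicate 3 of the control were nearly level in this sum. Without the former 10 cuticle proteins were DE and higher, and without any other single sample none was.

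Other components of cuticle differed less. Of 6 tested proteins of the apical extracellular matrix none was DE, and the 3 with the smallest p were pio (54.1, 40.5 and 53.5 CPM against 28.9, 34.5 and 32.6 CPM, adjusted p = 0.0671), dp (137, 87.2 and 123 CPM against 71.3, 81.8 and 72.5 CPM, adjusted p = 0.0985) and zye (15.4, 3.48 and 7.49 CPM against 2.32, 1.09 and 2.93 CPM, adjusted p = 0.126). Of the 6, zye passed the filter only through the 0.25 samples. Of 30 transcripts for chitin metabolism and chitin binding 3 passed it only through these samples, none was DE, and the median was 0.20. Over the 26 for which the controls passed it by themselves the median was 0.17. Of the 26, 8 did not overlap with higher values at 0.25 (30.8%) and 2 with lower values (7.69%). These shares were 12.6% and 10.1% of all transcripts that the controls passed. The chitin deacetylase verm had 59.4, 19.1 and 39.5 CPM against 13.5, 16.01 and 16.3 CPM (adjusted p = 0.106), and the chitin-binding protein Gasp had 32.1, 19.1 and 20.1 CPM against 12.8, 8.62 and 14.5 CPM (adjusted p = 0.106). Idgf5, a chitinase-like growth factor, was counted at 47.1, 36.2 and 40.8 CPM against 22.3, 28.2 and 30.5 CPM (adjusted p = 0.0942). All 3 had their 0.25 samples above the controls, by a small margin in replicate 2 for verm. Among 18 enzymes of tanning, which colour and harden cuticle, none was DE and the median was 0.26. Tyrosine hydroxylase, ple, the first enzyme from tyrosine to dopamine, had 41.8, 31.3 and 33.5 CPM against 22.7, 20.8 and 17.6 CPM, with an adjusted p of 0.0507. Dopa decarboxylase, Ddc, had 31.5, 32.7 and 35.1 CPM against 21.4, 21.9 and 27.3 CPM (adjusted p = 0.1). The blood cell prophenoloxidase PPO1 was lower in every 0.25 sample, at 40.04, 35.6 and 35.7 CPM against 54.7, 57.2 and 46.9 CPM (log2 fold change -0.51 ± 0.10 (SE), adjusted p = 0.0662).

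The lists of gut transcripts held no DE member. They do not cover every gut transcript, and 29 of the 62 DE transcripts belonged to no list. Of 17 Jonah proteases, a family of digestive serine proteases of the midgut, none was DE, and the median was 0.11. An unadjusted p under 0.05 with higher values at 0.25 was reached by 2, against 12.7% of all transcripts. None was free of overlap, against 13% of all transcripts with higher and 9.73% with lower values at 0.25. Jon99Cii, the most abundant, had 4165, 3136 and 3424 CPM against 3061, 3190.3 and 3221 CPM (log2 fold change 0.18 ± 0.10 (SE), adjusted p = 0.375), and Jon65Ai had 527, 399 and 455 CPM against 333, 366 and 424 CPM (adjusted p = 0.253). The 15 trypsins had a median of 0.12 and none was DE. Among them epsilonTry had 621, 509.5 and 479 CPM against 359, 354 and 486 CPM (adjusted p = 0.188), and the most abundant, alphaTry, had 2702, 1969 and 1858 CPM against 1993, 1871 and 2787 CPM (log2 fold change -0.02 ± 0.18 (SE), adjusted p = 0.955). Without replicate 1 of the 0.25 diet the medians of the Jonah and trypsin lists were -0.0022 and -0.02. These proteases are families of similar sequence whose reads may be split between copies.

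No member of the list of enzymes that digest carbohydrates or lipids passed the test. Of 21 tested 5 had an unadjusted p under 0.05 with higher and 1 with lower values on the 0.25 diet. Of all transcripts 12.7% and 4.27% did so. The median of the list was 0.07, or -0.05 without replicate 2 of the control. Amylase, encoded by Amy-p, had 518, 489 and 401 CPM against 423, 459 and 598 CPM (log2 fold change -0.07 ± 0.14 (SE), adjusted p = 0.824). The maltase Mal-A3 had 32.7, 30.2 and 33.4 CPM against 25.5, 24.5 and 27.2 CPM (adjusted p = 0.144), and CG9466, a mannosidase, had 208, 136 and 157 CPM against 109.7, 132 and 104 CPM (adjusted p = 0.135). The 11 transcripts of intestinal cell identity had a median of 0.21 with none DE, and GATAe, the factor that maintains the midgut, had 16.5, 9.57 and 13.7 CPM against 7.74, 7.94 and 8.34 CPM (adjusted p = 0.137). Of 8 tested gut lysozymes and peptidoglycan recognition proteins none was DE, and the median was 0.09. Over the 14 transporters of sugars, amino acids and vitamins the median was -0.03, and the list held values in both directions: the trehalose transporter Tret1-1 had 399, 300.3 and 368 CPM against 228, 285 and 239 CPM (adjusted p = 0.098), the vitamin transporter Smvt 68.6, 39.7 and 62.1 CPM against 33.1, 28.7 and 30.4 CPM (adjusted p = 0.0715), and the amino acid transporter slif 134, 142 and 137 CPM against 146, 164 and 162 CPM (adjusted p = 0.235).

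The germline and eggshell lists were the only lists in which every tested transcript lay below 0. Of 33 germline transcripts none was DE, 0 lay above 0, 16 did not overlap with lower values on the 0.25 diet, which is 48.5% against 9.73% of all transcripts, and 15 had an unadjusted p under 0.05 with lower values, against 4.27% of all transcripts. The median log2 fold change was -0.18 and the range was narrow, from -0.34 to -0.01. The RNA helicase vas, needed to form germ plasm, had 172, 179.9 and 184 CPM on the 0.25 diet and 226, 218 and 211 CPM in the controls (log2 fold change -0.28 ± 0.07 (SE), adjusted p = 0.098). For exu, which localises RNA in the oocyte, the values were 329, 304 and 315 CPM and 401, 408 and 359 CPM (adjusted p = 0.102). For otu, needed for germ cell differentiation, they were 293, 338 and 323 CPM and 408, 399.5 and 369.5 CPM (adjusted p = 0.116). The germ plasm organiser osk had 586, 749 and 681 CPM against 830.4, 894 and 839 CPM (adjusted p = 0.128). Summed over the list, 5884, 6794 and 6430.3 CPM on the 0.25 diet lay below each control, at 7434, 7766 and 7043 CPM. Without replicate 2 of the 0.25 diet 25 of 33 did not overlap and the median was -0.25. The count of 25 is from fewer samples and cannot be set against the share over all transcripts above. Over the 6 fits that left out a sample the median stayed between -0.26 and -0.14, and no member was DE in any of them.

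Eggshell transcripts are made by follicle cells late in egg formation. All 23 tested chorion and vitelline membrane transcripts lay below 0, with a median of -0.34, and none was DE. For 5 the diets did not overlap, all lower at 0.25 (21.7%, against 9.73% of all transcripts). The vitelline membrane proteins fs(1)M3 and fs(1)N had 148, 175 and 155 CPM against 253, 204 and 222 CPM (adjusted p = 0.0663) and 154, 164 and 168 CPM against 233, 190.4 and 194 CPM (adjusted p = 0.125). The chorion protein Cp16 had 578, 504 and 418 CPM against 753, 630.4 and 601 CPM (adjusted p = 0.172). The most abundant, Cp38, varied more within than between the diets, at 3740.1, 1849.7 and 2928 CPM against 4023, 2418 and 3897 CPM (log2 fold change -0.28 ± 0.26 (SE), adjusted p = 0.607). This list leaned on replicate 2 of the 0.25 diet: without it 19 of the 23 lay below 0 and the median was -0.21. The yolk proteins, made by fat body and follicle cells, differed little, with a median of -0.10 over 8 yolk and vitellogenesis transcripts, none DE, and with Yp1 at 21991, 16584 and 20759 CPM against 20963, 20390.1 and 21938 CPM (log2 fold change -0.09 ± 0.10 (SE), adjusted p = 0.657), whereas the yolk receptor of the oocyte, yl, was lower in every 0.25 sample, at 1419.8, 1554 and 1503 CPM against 1812, 1835 and 1630.03 CPM (log2 fold change -0.23 ± 0.07 (SE), adjusted p = 0.158).

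**Figure D4:**
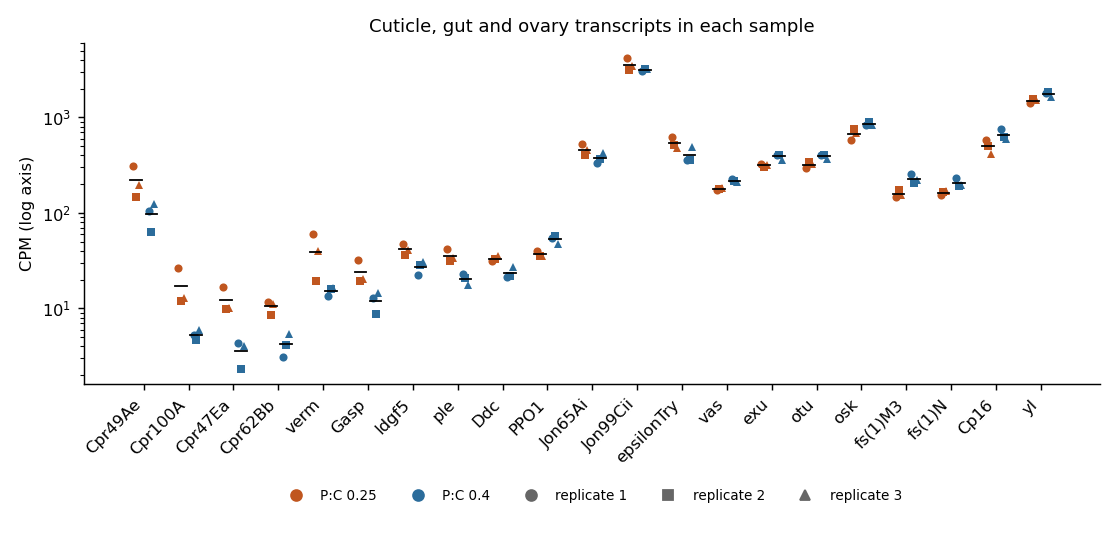
CPM on a log axis of 21 transcripts of cuticle, gut and ovary in each sample of the 0.25 diet (orange) and the control diet (blue), with symbols for the replicate number and a bar at the mean. From left to right, cuticle transcripts lie higher on the 0.25 diet with a wide spread, PPO1 lies lower, gut proteases overlap, and the germline and eggshell transcripts shown and yl lie lower by a small margin.

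Fat body and metabolic transcripts gave few single calls. Among 10 tested larval serum and fat body transcripts 1 fell: Sodh-1, a sorbitol dehydrogenase, had 37.5, 47.1 and 44.2 CPM on the 0.25 diet and 82.01, 71.2 and 91.8 CPM in the controls (log2 fold change -0.92 ± 0.12 (SE), adjusted p = 0.0226), and the list median was -0.06. The only other DE transcript with lower values, CG34148, had 86.6, 78.5 and 91.4 CPM against 145, 142 and 119 CPM (log2 fold change -0.66 ± 0.10 (SE), adjusted p = 0.0277) and overlaps 2 other transcripts. Of 22 transcripts for fatty acid synthesis and lipid storage none was DE and the median was 0.08, and the desaturase Desat1 had 2419, 1819 and 2282 CPM against 1603, 1685 and 1801 CPM (adjusted p = 0.136). In the 23 transcripts of insulin, TOR and AKH signalling none was DE and the median was 0.07. Thor, the translation inhibitor 4E-BP, had 202, 172 and 193 CPM against 147, 106 and 139 CPM (adjusted p = 0.0927), and foxo, its activator, 163, 143 and 150.2 CPM against 125, 139 and 127 CPM (adjusted p = 0.196).

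Of 26 transcripts for amino acid and purine metabolism 1 was DE and the median was 0.06. Gnmt, glycine N-methyltransferase, which consumes S-adenosylmethionine, had 14.2, 6.09 and 10.01 CPM against 2.19, 2.19 and 1.80 CPM (log2 fold change 2.28 ± 0.34 (SE), adjusted p = 0.0312). Purine synthesis was represented by ade5, which passed the test but not the 1.5-fold minimum, at 400.3, 426 and 368 CPM against 278, 296 and 277 CPM (log2 fold change 0.49 ± 0.08 (SE), adjusted p = 0.0346), and by Prat2, the first enzyme of that route, at 244, 117 and 204 CPM against 96.2, 107 and 99.7 CPM (adjusted p = 0.102). Of 28 antimicrobial and immune peptides 1 rose, the Bomanin CG16836, at 36.3, 34.9 and 28.2 CPM against 18.3, 16.6 and 14.4 CPM (log2 fold change 1.01 ± 0.14 (SE), adjusted p = 0.024), and the median was 0.04. Without replicate 1 of the control the median was 0.62, and that sample stood apart in the antibacterial peptides AttA, AttB, AttC and DptB. AttA was counted at 1.77, 1.87 and 7.67 CPM on the 0.25 diet and at 67.4, 0.958 and 2.48 CPM in the controls, and AttB, AttC and DptB stood at 56.7, 75.9 and 44.1 CPM in that control. Of 31 glutathione transferases 4 passed the filter only through the 0.25 samples. The 2 that rose, GstS1 and GstE1, were among the 27 for which the controls passed it by themselves. GstE1 had 187, 127 and 167 CPM against 66.3, 97.2 and 80.7 CPM (log2 fold change 0.98 ± 0.16 (SE), adjusted p = 0.0423).

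Among DE transcripts the 2 largest changes belonged to transcripts of no list, as did the fourth. CG8147, now named phu, had 70.8, 24.5 and 32.4 CPM against 0.645, 3.70 and 0.564 CPM (log2 fold change 4.74 ± 0.62 (SE), adjusted p = 0.0226). CG3264, the alkaline phosphatase Alp8, had 112, 116 and 129 CPM against 19.6, 9.85 and 8.45 CPM (log2 fold change 3.25 ± 0.25 (SE), adjusted p = 0.00305). CG11391, the acyl-CoA synthetase family member Acsx2, had 2.81, 4.60 and 3.65 CPM against 0.903, 0.274 and 0.338 CPM (log2 fold change 2.85 ± 0.45 (SE), adjusted p = 0.0346). Control levels of CG11391, and of CG8147 in replicates 1 and 3, were under 1 CPM and near the limit of 3 counts. Both transcripts passed the filter only through the 0.25 samples. CG3264 was counted well above that limit and was DE whichever sample was left out.

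Because CG3264 stood out, the other alkaline phosphatases, enzymes that cleave phosphate from organic molecules, were read as a family that was chosen after its values were seen. Of 11 counted members 9 were tested, 3 rose, none fell, and the median was 0.79. For 6 the diets did not overlap, with higher values on the 0.25 diet. CG3264, whose values led to the choice of the family, is counted in the 3, the 6 and the median. These numbers are therefore description only and are not set against the share over all transcripts. The genes of CG3264, CG3290 (Alp2) and CG3292 (Alp7) are neighbours on chromosome 2R (22208464 to 22210765, 22206005 to 22207987 and 22203694 to 22205593 of dm6). CG3290 was counted at 349, 194 and 185 CPM against 73.8, 55.7 and 45.4 CPM (log2 fold change 2.06 ± 0.27 (SE), adjusted p = 0.0226), and CG3292 at 3.40, 5.84 and 4.30 CPM against 1.29, 1.64 and 0.789 CPM (adjusted p = 0.059). The transcript CG3292 passed the filter only through the 0.25 samples. A further pair on chromosome 3L, CG10592 (Alp10) and CG5150 (Alp9), had 102, 65.6 and 78.5 CPM against 48.5, 43.9 and 37.4 CPM (adjusted p = 0.0489) and 61.2, 49.6 and 48.3 CPM against 36.7, 28.5 and 26.7 CPM (adjusted p = 0.0525).

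Heat shock transcripts, which rise in stressed cells, separated the replicates more than the diets. Of 21 heat shock and metallothionein transcripts none was DE, and 2 passed the filter only through the 0.25 samples. The median log2 fold change was 1.34, or 1.02 over the 18 for which the controls passed the filter by themselves. Of the 18, 2 did not overlap with higher (11.1%) and 1 with lower values on the 0.25 diet (5.56%). These shares were 12.6% and 10.1% of all transcripts that the controls passed. The inducible Hsp70Bb had 465, 32.8 and 367 CPM on the 0.25 diet and 34.3, 51.9 and 29.4 CPM in the controls (log2 fold change 2.91 ± 0.76 (SE), adjusted p = 0.112). Its near-identical copies share reads, and the 6 Hsp70 transcripts summed to 1257, 72.99 and 782 CPM and 86.3, 126 and 63.9 CPM. Replicates 1 and 3 of the 0.25 diet were high and replicate 2 was at the level of the controls. The constitutive Hsp83 had 4921, 3129 and 4632 CPM and 3451, 4191 and 3361 CPM (log2 fold change 0.21 ± 0.16 (SE), adjusted p = 0.531), and the transcription factor Kr-h1, a target of juvenile hormone, had 131, 31.2 and 99.7 CPM and 26.6, 58.7 and 29.1 CPM (adjusted p = 0.253), with the same replicate low. Without that replicate 11 of the 21 were DE and higher. MtnA, a metallothionein, did not share this pattern, at 322, 256 and 228 CPM against 163, 146 and 193 CPM (log2 fold change 0.68 ± 0.14 (SE), adjusted p = 0.0715). Whether the level of heat shock RNA had a part in the values of other lists was not tested.

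Lists of general cell functions set the scale for these differences. Of 86 cytoplasmic ribosomal proteins none was DE, and the median was -0.01. Of the 86, 0 did not overlap with higher and 2 with lower values at 0.25, against 13% and 9.73% of all transcripts. Of 33 proteasome subunits none was DE, 15.2% lay above 0, and the median was -0.06. Across levels of expression, transcripts of 1 to 10 CPM had a median log2 fold change of 0.21, with 18.1% not overlapping and higher and 3.26% not overlapping and lower, and transcripts of 100 to 1000 CPM had a median of -0.04. The 408 tested noncoding transcripts had a median of 0.02, and 2 rose, CR45161 and CR45024, both of which overlap a DE transcript on the opposite strand.

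On the other diets of the study the same lists were read as levels only, since each comparison would use the same controls. The summed sarcomere transcripts averaged 14688 ± 1819 CPM (SD, n = 3) on the 0.25 diet and 8799.8 ± 969.9 CPM in the controls. At P:C ratios of 0.55 and 0.7 they averaged 8541 ± 1305 CPM and 6153 ± 562 CPM. The germline list averaged 6369 ± 458 CPM, 7414 ± 362 CPM, 7411 ± 535 CPM and 8343 ± 546 CPM in the same order. The eggshell list did not share this order, at 16374 ± 3898 CPM, 20105 ± 3356 CPM, 19201 ± 3640 CPM and 15304 ± 2707 CPM. The yolk list was lowest on the 0.7 diet, at 47981 ± 5679 CPM. For Mlc2 the samples of the 0.7 diet held 329, 338 and 364 CPM, below each control. For Obp83a they held 2.81, 0.856 and 2.46 CPM, on both sides of the controls. The heat shock list was high in 2 samples each of the 0.25 and 0.55 diets, and the summed Hsp70 transcripts of the 0.55 diet were 798, 617 and 71.4 CPM.

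**Figure D5:**
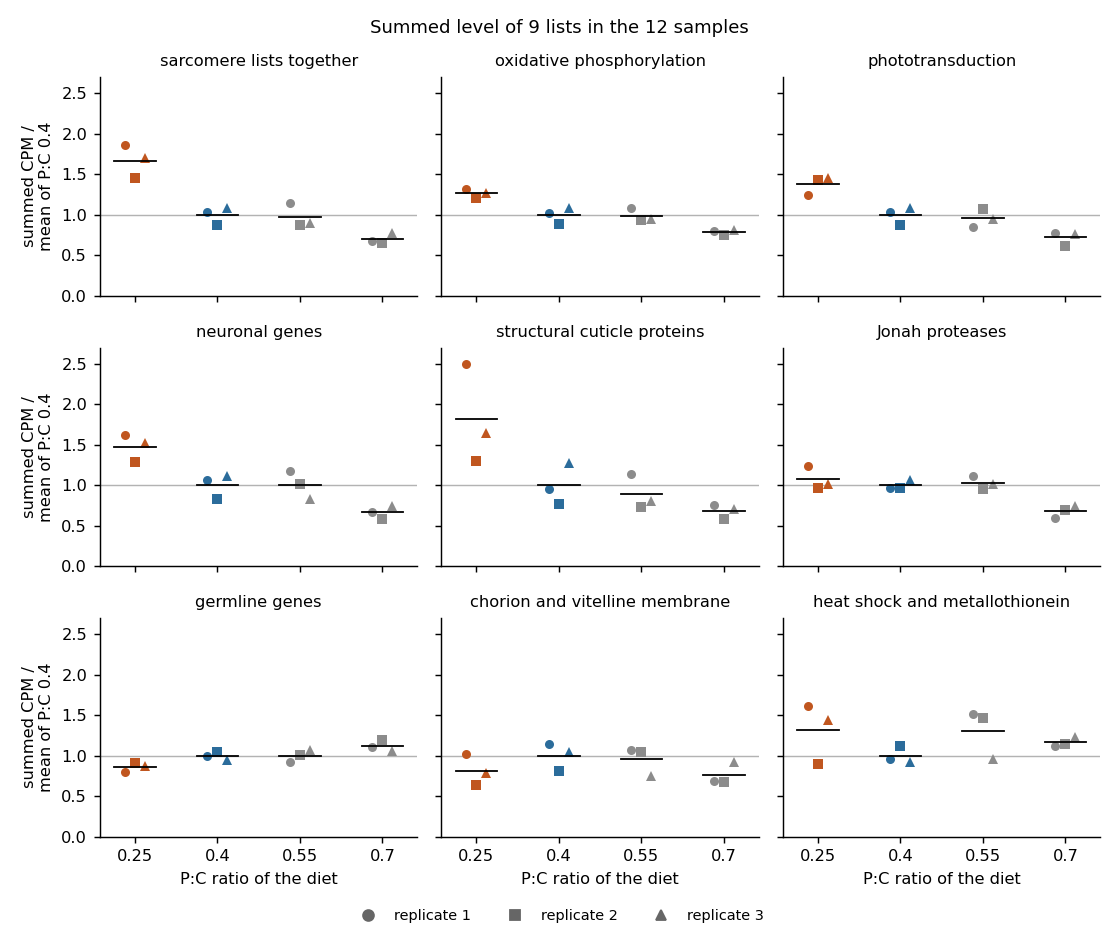
Summed CPM of 9 lists divided by the mean of the 3 controls, in the 3 samples of each of the 4 diets, with symbols for the replicate number and a bar at the mean. The sarcomere sum of the 0.25 diet lies at 1.45 to 1.86 and that of the 0.7 diet at 0.65 to 0.77, the germline sum is lowest on the 0.25 diet and highest on the 0.7 diet, and the heat shock sum is at 0.90 in replicate 2 of the 0.25 diet and at 1.62 and 1.44 in the other 2.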

How the data were processed

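Counts per transcript were deposited by the authors as 1 table, made by trimming with Trim Galore, alignment with hisat2 to dm6 and counting in Seqmonk. The strand setting is not given in the sources used here. Its 15448 transcripts carry names, and 94.1% matched a gene of Ensembl release 115 at the same span and strand, which gave the current symbols. The 6 samples of both diets were fitted in R 4.3.3 with edgeR 4.0.16 (TMM, filterByExpr at a minimum count of 10, quasi-likelihood F test, Benjamini-Hochberg adjustment over all tested transcripts), with no covariate and no pairing. SE is the absolute log2 fold change over the square root of F. On simulated counts 188 of 200 transcripts changed 2-fold, all above 10 CPM, were recovered, with 11 false calls among 9691. The simulation drew each transcript independently and held no deviating sample. It therefore does not give the rate of missed or false calls in these 6 samples or at lower levels. Separate pools of 12 flies served as replicates. The study tested with DESeq2. Here DESeq2 1.42.0, other scalings and filters, a replicate block and leaving out each sample were tried as alternatives.

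Members and lists were chosen with earlier results of these data known, and no test was made over a list. Named are the 6 DE transcripts with the largest change in each direction, the 3 transcripts of smallest p and the most abundant one of a list, and markers of cell types. Prm, Strn-Mlck, Act79B, Tm2, TpnC25D, Ilk, rhea, mys, Obp19d, Obp28a, Obp99a, Jhedup, AttA, AttB, AttC, DptB, CR45161, CR45024 and the alkaline phosphatases other than CG3264 were named after their values were seen. Sequences were not analysed here.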

Additional observations from a re-analysis of the deposited data

How the results depend on the processing

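DE transcripts numbered 62 (60 higher, 2 lower) as reported. The number was 260 (249 and 11) with the DESeq2 Wald test, 109 (104 and 5) with scaling by library size alone, 94 (90 and 4) with no filter beyond 1 count, 104 (99 and 5) with all 12 samples in the fit, and 15 (15 and 0) with a tested minimum of 1.2-fold. It was 57 (55 and 2) with DESeq2 size factors, 54 (52 and 2) with a minimum of 10 counts in each sample, and 69 (67 and 2) with no fold minimum. With a replicate block it was 130 (124 and 6), of which 58 were shared with the 62. Same-numbered samples of the diets correlated at 0.000138, -0.00797 and -0.0542, and no sample correlated best with the other diet's sample of its own number. With 3 samples per diet these values cannot decide whether the numbers stand for a pairing. Leaving out 1 sample gave 2 to 394 DE transcripts, 2 to 383 higher and 0 to 11 lower. The cause of these changes was not tested. Of the list medians 383 values stayed within the spread between samples and 22 moved. Leaving out single samples took across 0 the medians of the ionotropic receptor (-0.60 to 0.12), hormone (-0.14 to 0.03), Jonah (-0.0022 to 0.19), trypsin (-0.02 to 0.23), carbohydrase (-0.05 to 0.15), transporter (-0.05 to 0.10), yolk (-0.17 to 0.01), insulin and TOR (-0.0078 to 0.08), antimicrobial (-0.02 to 0.62) and ribosomal protein (-0.05 to 0.0064) lists, and scaling by library size alone did so for the noncoding transcripts (0.02 as reported). Of the transcripts described, alphaTry (log2 fold change -0.21 to 0.17), Amy-p (-0.17 to 0.0891) and Yp1 (-0.18 to 0.0178), none of them DE, changed sign when single samples were left out. At 7156354 to 10883919 counts a sample, most chemosensory receptors were under the filter, and a missed threshold in the gut lists does not show that levels were equal.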

Other observations

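Lists that entered no account above were also read. Of 9 tested transcripts of oenocytes, the cells that make cuticular hydrocarbons, 8 lay above 0 and none was DE, with a median log2 fold change of 0.31. Of 10 transcripts of the circadian clock 9 lay above 0 and none was DE, with a median of 0.29. An unadjusted p under 0.05 with higher values at 0.25 was reached by 4, against 12.7% of all transcripts. The 11 tested transcripts of ecdysone and other maturation hormones had a median of -0.10 with none DE, and the 12 of hemocytes and basement membrane a median of -0.10 with none DE. Of 8 transcripts of the female reproductive tract 1 passed the filter only through the 0.25 samples. Of the 7 for which the controls passed it by themselves 6 lay above 0, none was DE, and the median was 0.16. Of 74 male transcripts 2 were tested and none was DE.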
